A study of Homo sapiens with 2 samples.

Results

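Among the peaks of histone H3 lysine 27 acetylation (H3K27ac) mapped in an enzalutamide-resistant prostate cancer line, 15613 lay at an end of a protein-coding gene and also overlapped a peak of histone H3 lysine 4 monomethylation (H3K4me1). They were chosen by the deposited peak calls: an H3K27ac peak on chromosomes 1 to 22 or X was kept when it reached within 2.5 kb of either end of a RefSeq protein-coding gene and shared at least 1 bp with an H3K4me1 peak. They made up 24.1% of the 64784 H3K27ac peaks used, and 83.1% (exact 95% interval 82.6 to 83.6) of the 18786 H3K27ac peaks at gene ends. Presence at a gene end, presence of both marks and a height above the peak caller's threshold were therefore fixed by the choice, and every value below describes peaks selected in that way.

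The cells were C4-2B, a castration-resistant derivative of the LNCaP prostate cancer line, kept in the antiandrogen drug enzalutamide for at least 6 months. CUT&Tag was used, a method that tethers a transposase to antibody-bound chromatin so that DNA around the marked nucleosomes is cut and tagged in place, with 100000 cells per library and 14 cycles of PCR. There was 1 library for H3K4me1 and 1 for H3K27ac, both from the resistant line. Parental cells, other treatments and a background library were not analysed here, so nothing below is a difference between conditions, and no test between the marks or between classes of peaks was made. The secondary antibody named in the labels is rabbit anti-mouse, although both primaries are rabbit products, and what that did to the signal was not tested.

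H3K27ac is placed by the acetyltransferases EP300 and CREBBP on nucleosomes beside active promoters and enhancers. H3K4me1 is placed mainly by KMT2C and KMT2D and is best known from enhancers. At active CpG-rich promoters the nucleosomes next to the start usually carry trimethylation of the same lysine, and monomethylation is then found in the flanks. Gene ends at which both marks were called can therefore hold promoters as well as enhancers that happen to lie beside a gene, and the position and balance of the marks were measured to describe that mixture.

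Sequence windows of 6 gene starts are printed because they span the range of what was found, and the values of each follow. They come from the RefSeq promoter table (GRCh38.p14) and run 5′ to 3′ on the gene's own strand from 250 bases before to 50 bases after the annotated start. STEAP2 (chr7:90211490-90211789, plus strand) had the tallest H3K27ac summit. SLC71A1 (chr1:100037845-100038144, plus strand) had the third tallest with little H3K4me1. RPS14 (chr5:150449690-150449989, minus strand) was among the 5 genes with the least H3K4me1 relative to H3K27ac, and LMCD1 (chr3:8501573-8501872, plus strand) had the most. KLK3 (chr19:50854665-50854964, plus strand) encodes prostate-specific antigen, and BCO2 (chr11:112175262-112175561, plus strand) was among the 10 highest fold enrichments; both windows are poor in CpG, the cytosine-guanine step that promoters are often rich in. Capitals mark matches, on either strand, to the short motifs named further on.
STEAP2: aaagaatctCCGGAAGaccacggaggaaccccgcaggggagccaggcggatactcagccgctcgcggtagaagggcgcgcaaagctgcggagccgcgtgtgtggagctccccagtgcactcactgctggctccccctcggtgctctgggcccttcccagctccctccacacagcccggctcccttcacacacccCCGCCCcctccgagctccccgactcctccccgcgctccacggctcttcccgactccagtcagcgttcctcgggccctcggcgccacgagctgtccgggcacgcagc
SLC71A1: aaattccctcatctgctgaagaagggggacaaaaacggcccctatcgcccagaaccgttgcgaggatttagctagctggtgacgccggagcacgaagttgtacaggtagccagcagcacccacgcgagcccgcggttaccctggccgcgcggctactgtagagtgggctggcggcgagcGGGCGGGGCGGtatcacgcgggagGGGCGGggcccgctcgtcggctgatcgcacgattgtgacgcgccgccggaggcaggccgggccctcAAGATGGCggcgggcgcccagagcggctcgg
RPS14: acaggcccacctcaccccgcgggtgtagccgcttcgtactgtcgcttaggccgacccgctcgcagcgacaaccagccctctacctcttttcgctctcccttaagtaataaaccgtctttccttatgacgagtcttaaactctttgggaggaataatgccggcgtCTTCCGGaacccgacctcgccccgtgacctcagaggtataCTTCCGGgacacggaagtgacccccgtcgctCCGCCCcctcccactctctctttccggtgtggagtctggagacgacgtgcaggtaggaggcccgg
LMCD1: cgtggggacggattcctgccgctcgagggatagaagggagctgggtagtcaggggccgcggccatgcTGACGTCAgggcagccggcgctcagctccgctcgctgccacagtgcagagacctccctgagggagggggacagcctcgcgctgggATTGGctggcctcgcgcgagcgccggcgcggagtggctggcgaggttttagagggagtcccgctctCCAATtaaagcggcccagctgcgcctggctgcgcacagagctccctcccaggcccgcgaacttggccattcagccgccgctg
KLK3: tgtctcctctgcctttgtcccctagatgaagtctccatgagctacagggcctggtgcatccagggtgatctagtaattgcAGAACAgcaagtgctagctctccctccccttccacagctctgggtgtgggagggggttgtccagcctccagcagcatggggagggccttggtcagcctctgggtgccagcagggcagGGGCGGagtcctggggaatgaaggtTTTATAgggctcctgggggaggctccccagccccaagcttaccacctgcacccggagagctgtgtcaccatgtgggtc
BCO2: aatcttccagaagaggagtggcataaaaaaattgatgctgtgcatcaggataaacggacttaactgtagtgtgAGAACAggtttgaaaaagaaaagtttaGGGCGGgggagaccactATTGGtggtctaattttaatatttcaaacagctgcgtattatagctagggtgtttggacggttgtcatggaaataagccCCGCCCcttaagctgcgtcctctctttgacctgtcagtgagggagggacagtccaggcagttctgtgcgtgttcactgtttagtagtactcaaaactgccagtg

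The STEAP2 window holds 28 CpG and matches to the GC box and the ETS motif, that of SLC71A1 holds 37 CpG, GC boxes and a YY1 motif next to the start, and that of RPS14 holds 27 CpG, a GC box and ETS motifs. LMCD1 has 29 CpG, CCAAT boxes and a cyclic AMP response element. KLK3 has 2 CpG, a TATA motif, a GC box and an androgen response element half-site, and BCO2 has 7 CpG, GC boxes, a CCAAT box and the same half-site. A match is a run of letters, not a bound site. The H3K27ac and nearest H3K4me1 summits lay at -58 and -70 bp from the start at STEAP2, -57 and -56 bp at KLK3, and -8 and -321 bp at RPS14.

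Gene starts accounted for most of the peaks. With strand taken from the promoter table, the gene end nearest to the H3K27ac summit was a start for 10893 peaks (69.8%) and the far end of a gene for 1831 (11.7%). The other 2889 (18.5%) lay nearest to a gene whose strand the table does not give. The peaks marked 12619 of 19974 protein-coding genes, which is 63.2%. Of the 15812 genes with a known strand, 61.8% had such a peak within 2.5 kb of the start and 17.7% within 2.5 kb of the far end. One peak was found at 7564 of the marked genes, 2 at 3561 and 7 at 4, and 2234 genes had peaks at both ends. Because genes sit close together, 3756 of the peaks (24.1%) lay at ends of more than 1 gene, so that counts of genes and counts of peaks are not interchangeable.

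The height of a summit is given as a pileup, the whole number of sequenced fragments (or reads, since the sources do not say which) stacked over it, recovered from the deposited fold enrichment and p-value. Over all 15613 peaks the median H3K27ac pileup was 51 (quartiles 24 and 92, range 4 to 534), the median width 599 bp and the median fold enrichment over local background 10.2. The tallest overlapping H3K4me1 peak had a median pileup of 35 (quartiles 21 and 56, highest 421). The ratio of H3K4me1 to H3K27ac pileup had a median of 0.710 (quartiles 0.405 and 1.41). The libraries' total depths are unknown, so a ratio of 1 does not mean equal marking, and ratios are only compared among peaks.

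Peaks nearest a gene start were wide and rich in H3K27ac, whereas those nearest a far end were closer to distal peaks in width and balance. At starts the median width was 683 bp, the median H3K27ac pileup 60, the median H3K4me1 pileup 35 and the median ratio 0.610. At far ends the width was 280 bp, the pileups 19 and 40, and the ratio 1.89. The 32052 distal H3K27ac peaks that overlapped H3K4me1 were 252.5 bp wide at the median, with pileups of 14 and 34 and a ratio of 2.25. Of the far-end peaks, 10.4% (exact 95% interval 9.07 to 11.9) had their summit within 1 kb of any start in the promoter table, against 87.9% of the start peaks. That contrast follows largely from the classes, which were set by the nearest end with strand from the same table. The 3173 gene-end H3K27ac peaks without H3K4me1 were narrow and low, at a median of 195 bp and 9 fragments, so that height and overlap went together.

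The H3K4me1 summit nearly always lay inside the H3K27ac peak and close to its summit. It fell within the bounds of the H3K27ac peak in 96.2% of cases, on the very same base in 9.56% (1493 peaks), within 50 bp in 59.8%, within 200 bp in 88.9% and within 500 bp in 98.3%. The median distance between the summits was 36 bp (quartiles 5 and 99), taking the nearest overlapping H3K4me1 summit. It was 37 bp at starts, 30 bp at far ends and 30 bp in distal peaks. A separation of this size is smaller than the DNA wrapped on 1 nucleosome, so at most of these peaks the deposited summits place both marks on the same stretch. Overlap was required and the nearest overlapping summit was taken, so this closeness follows in part from the choice.

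At gene starts the displacement had a direction. The H3K4me1 summit lay away from the gene body at 52.9% of start peaks (exact 95% interval 52.0 to 53.9), towards it at 37.1%, and on the same base at 9.97%. At far ends the shares were 45.7% away and 45.9% towards, with no lean to either side. The lean was strongest where the H3K27ac summit sat on the start itself: among the 4856 peaks with that summit within 150 bp of the start, the H3K4me1 summit was farther upstream at 67.3% (65.9 to 68.6), with a median offset of -27 bp. Setting aside peaks at divergent pairs of starts, which also have a start on the upstream side, 2903 of 4238 such peaks (68.5%) had H3K4me1 upstream. Partners whose strand the promoter table does not give could not be recognised, so some divergent pairs may remain among the 4238. Starts of noncoding genes lay within 1 kb of 1797 of the 10893 start peaks (16.5%), and their part in the lean was not tested. These intervals cover counting error over peaks of 1 library pair, not variation between cultures.

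**Figure D1:**
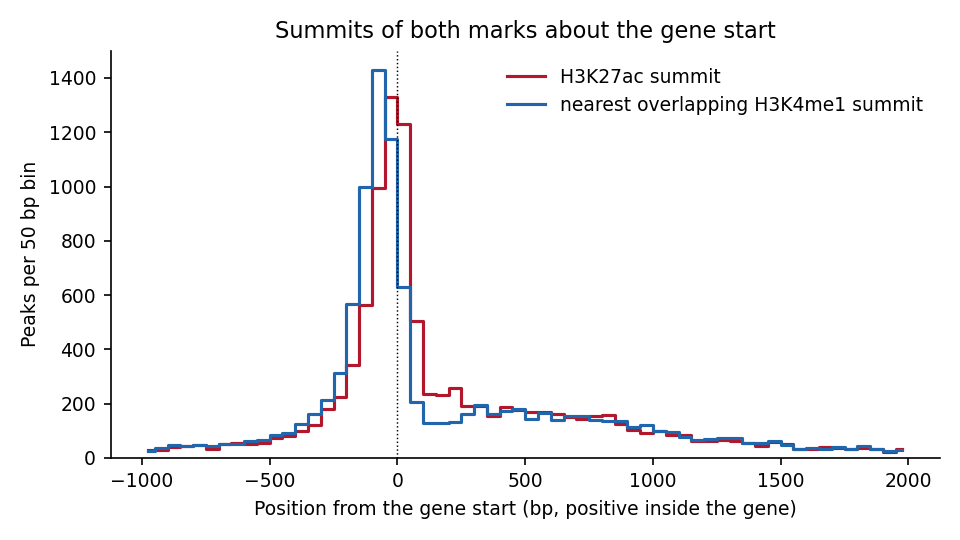
Number of peaks per 50 bp bin (vertical axis) whose H3K27ac summit (red) or nearest overlapping H3K4me1 summit (blue) lies at each distance in bp from the gene start (horizontal axis, positive inside the gene), for the 10893 peaks nearest a start. The H3K4me1 curve peaks to the left of the H3K27ac curve, with medians of -28 and 22 bp, and it dips just inside the start.

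Farther into the gene the displacement turned round, though not in the first stretch. At 150 to 400 bp inside the gene (1026 peaks) H3K4me1 was still upstream at 50.4% and towards the gene body at 41.1%. When the H3K27ac summit lay 400 to 800 bp inside the gene (1307 peaks), H3K4me1 was towards the gene body at 56.2% and upstream at 35.7%, and at 800 to 1500 bp (1145 peaks) the shares were 56.1% and 33.0%. From 150 to 500 bp before the start (1123 peaks) the shares were near even, 42.0% upstream and 44.6% towards the gene. H3K4me1 summits thus lay to the outer side of H3K27ac both at the start and well inside the gene. As a plot of both summits about the start shows, H3K4me1 summits were scarce just inside the gene.

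**Figure D2:**
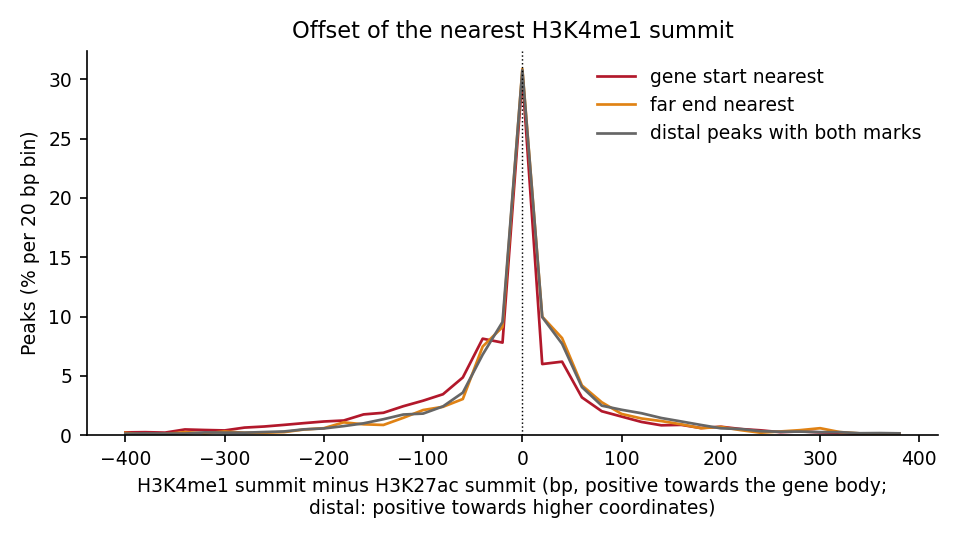
Offset in bp of the nearest H3K4me1 summit from the H3K27ac summit (horizontal axis, positive towards the gene body, or towards higher coordinates for distal peaks) against the percentage of peaks per 20 bp bin (vertical axis). Start peaks (red) lean to negative offsets, with quartiles of -56 and 17 bp, while far-end peaks (orange, quartiles -28.5 and 31 bp) and distal peaks (grey) are close to symmetric.

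Height and balance changed with position about the start as well. H3K27ac was tallest within 150 bp of the start, at a median pileup of 76, and fell to 46 at 400 to 800 bp inside the gene, 37 beyond 1500 bp and 32 farther than 500 bp upstream. H3K4me1 moved far less, from 36 at the start to a low of 28 at 400 to 800 bp and 46.5 beyond 1500 bp. The ratio of the marks was therefore lowest near the start, 0.516 within 150 bp and 0.466 at 150 to 400 bp. It was highest at the edges of the window, 1.14 farther than 500 bp upstream and 1.25 beyond 1500 bp inside the gene.

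The classes were then compared at matched H3K27ac height, since tall peaks are wider and their summits better placed. Among peaks with a pileup of 40 to 64, the median ratio was 0.640 at starts (2132 peaks), 1.40 at far ends (227) and 1.59 in distal peaks (2498). At 100 fragments or more the values were 0.351, 0.697 and 0.748. The distance between summits also separated the classes at these heights: 36, 18 and 15 bp at 40 to 64 fragments, and 38, 22 and 16 bp at 100 or more. Width was not matched there, with medians of 666, 448 and 416 bp at 40 to 64 fragments. At matched width the order of the distances was not kept. They were 25, 31 and 29 bp in peaks up to 200 bp wide. At 601 to 800 bp they were 47, 30 and 32 bp, and at 801 to 1000 bp 44, 52 and 34 bp. Among the lowest peaks, 4 to 9 fragments, the ratios were 2.65, 2.40 and 2.86, and the classes lay close together. From the lowest to the highest of these bins the median H3K27ac pileup of all gene-end peaks went from 7 to 135 while H3K4me1 went from 18 to 51, so the ratio dropped from 2.5 to 0.357.

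**Figure D3:**
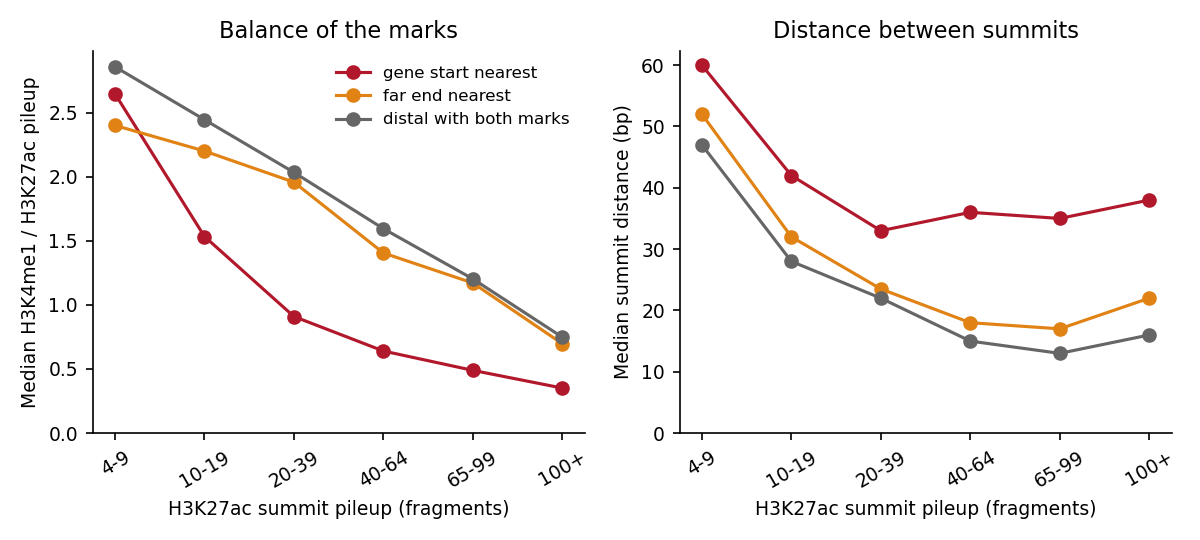
Median ratio of H3K4me1 to H3K27ac pileup (left) and median distance in bp between the summits (right) in bins of H3K27ac summit pileup in fragments (horizontal axes), for peaks nearest a start (red), nearest a far end (orange) and distal (grey). From 10 fragments upwards the start peaks have the lowest ratio and the longest distance in every bin, with far-end and distal peaks close together.

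The heights of the marks ran together only loosely. Spearman's rho between the H3K27ac pileup and the tallest overlapping H3K4me1 pileup was 0.416 over the 15613 peaks, 0.450 at starts, 0.632 at far ends and 0.623 over distal peaks. The peaks share 1 pair of libraries and their local depth and base composition, and these figures are descriptions.

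Several H3K4me1 peaks under 1 H3K27ac peak were common at starts. In all, 3933 gene-end peaks (25.2%) overlapped more than 1 H3K4me1 peak: 28.8% of start peaks, 6.50% of far-end peaks and 5.21% of distal peaks. Width moved with this count: it was 65.7% in peaks of 1001 to 1500 bp and 1.84% in those of 201 to 400 bp. At matched width the shares were closer, and start peaks had more among wide peaks. They had 66.1% against 55.6% of distal peaks at 1001 to 1500 bp, and 44.9% against 32.9% at 801 to 1000 bp. Among narrow peaks this order was not kept. The shares of start and distal peaks were 0.194% and 0.247% up to 200 bp, and 2.12% and 2.04% at 201 to 400 bp. In the next wider bin they were 6.88% and 8.41%. Where there were several, their outermost summits spanned a median of 621 bp (quartiles 455 and 852), and in 65.1% they lay on both sides of the H3K27ac summit.

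A taller H3K4me1 peak that the H3K27ac peak did not touch stood within 3 kb at 28.5% of the gene-end peaks, a median of 1147 bp away and 1.69 times as tall as the overlapping one. In distal peaks the share was 23.7%. Around each start peak, H3K4me1 summits numbered 74.1 per 100 peaks in the 200 bp bin centred on the H3K27ac summit. They dropped to 8.27 in the bin centred 200 bp farther towards the gene and rose again to 13.8 at 600 bp. On the other side there was no clear dip, with 15.2 at -200 bp, 11.6 at -400 bp and 11.9 at -600 bp. The central value follows in part from the required overlap, and whether the dip beside it does too was not tested. Summits in the flanks had low medians, 20 fragments at 600 bp and 24 at -600 bp against 35 at the centre. A taller flank was thus the minority arrangement among these peaks, which were chosen for carrying H3K4me1 under H3K27ac.

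Among genes of known strand, divergent promoters, in which starts on opposite strands lie within 1 kb, accounted for 1006 peaks. Their median H3K27ac pileup was 82.5 and the ratio of the marks 0.444, against 58 and 0.632 at starts without such a partner. H3K4me1 itself had nearly the same height, 34 and 35 fragments, and the median distance between summits was 29 bp against 38 bp.

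The tallest H3K27ac summit at a gene end was that of STEAP2, a metalloreductase of the prostate epithelium, with 534 fragments at chr7:90211512-90212344 (hg38; exact Poisson 95% interval 490 to 581) over a local background of 22.6. Its H3K4me1 summit reached 223 (195 to 254), the tallest among the 15 strongest genes, at -12 bp. HNRNPF, an RNA-binding splicing regulator, followed with 447 fragments at chr10:43408156-43409636 and SLC71A1, of a solute carrier family, with 445. Peaks named for 1 gene can also lie at an end of another, as that of SLC71A1 does at SLC35A3. The H3K4me1 pileups of HNRNPF and SLC71A1 were only 28 and 38. At HNRNPF that H3K4me1 peak stood upstream of the H3K27ac summit, at an offset of -537 bp, and a smaller one of 16 fragments lay nearer, at 48 bp. From the second gene on, the intervals of all 14 overlap, if only narrowly between HNRNPF and PPP2CA, whereas that of STEAP2 overlaps only the tip of the HNRNPF interval (407 to 490).

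RAB10, a GTPase of vesicle transport, had 437 fragments of H3K27ac and 121 of H3K4me1, and KMT2E, a member of the KMT2 family, had 428 and 48 at a peak upstream of its start, at -1068 bp. ZNF487 had 418 and 39, with both summits on the same base. NCOA4, the receptor of ferritin autophagy, had 417 and 110, and RPL5, of the large ribosomal subunit, 413 and 74. These genes serve transport, chromatin, iron turnover and translation, and they shared tall H3K27ac with H3K4me1 that varied widely from gene to gene.

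GART, an enzyme of purine synthesis, had 411 fragments of H3K27ac and 52 of H3K4me1. FLCN, the folliculin tumour suppressor, had 405 and 21, and its partner FNIP1 had 388 and 95. CNBP, a nucleic acid-binding protein, had 396 and 83, and CDC25C, the phosphatase that drives entry into mitosis, 393 and 21. The list of 15 closes with PARK7, a protein of the oxidative stress response (388 and 129), and PPP2CA, the catalytic subunit of phosphatase 2A (380 and 102). Among these genes H3K4me1 thus ranged from 21 to 223 while H3K27ac ranged from 380 to 534.

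**Figure D4:**
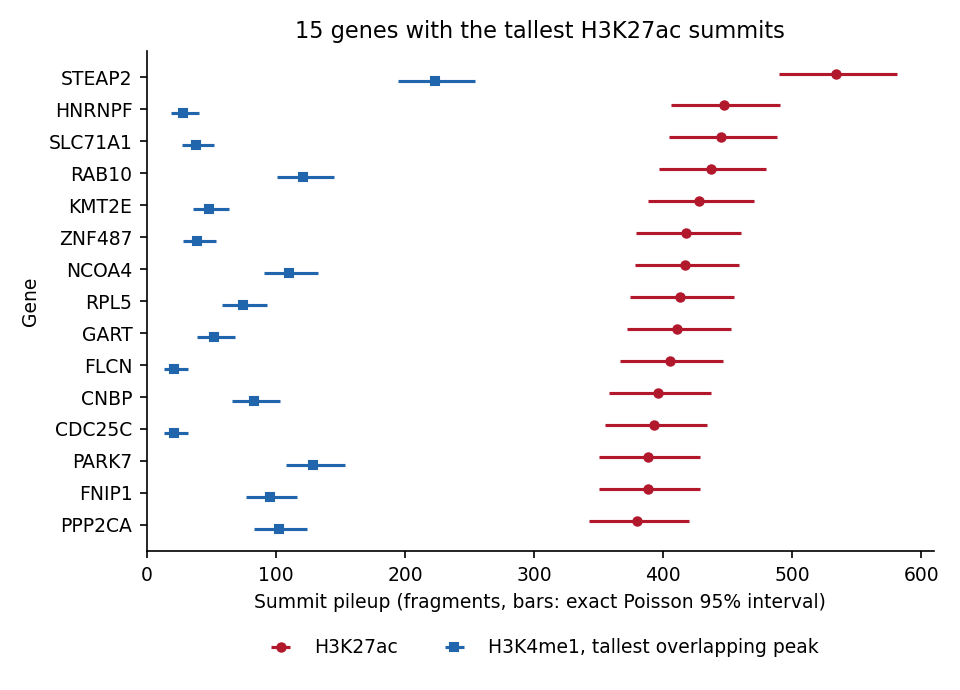
Summit pileup in fragments (horizontal axis) of H3K27ac (red circles) and of the tallest overlapping H3K4me1 peak (blue squares) at the 15 genes with the tallest H3K27ac summits (vertical axis), with exact Poisson 95% intervals for counting error. H3K27ac declines from 534 at STEAP2 to 380 at PPP2CA, and the H3K4me1 pileups are highest at STEAP2, PARK7 and RAB10.

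The 200 tallest peaks, all with 245 fragments or more, had a median H3K27ac pileup of 278 and a median H3K4me1 pileup of 58.5 (14 to 305). Their median ratio was 0.202, and 173 were nearest a start, 5 a far end and 22 a gene of unknown strand. Over all chromosomes these were 200 of the 15613 gene-end peaks. They were spread unevenly over the chromosomes, with 24 of the 705 gene-end peaks of chromosome 5 (3.40%), 41 of the 1661 of chromosome 1 (2.47%) and 1 of the 501 of chromosome 15 (0.200%). None of the 443 peaks on X was among them, which allows a share of up to 0.677% (3 counts of the 443). The local background at these 200 peaks had a median of 15.7 fragments, against 4.09 over all gene-end peaks. The part of DNA copy number in these heights was not tested.

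Ranking by fold enrichment, which divides by that background, gave a different set of genes. PDXDC1 led with a fold of 47.7 at 179 fragments, followed by the glutathione transferase gene GSTA4 (35.0 at 163) and the zinc finger gene ZSCAN30 (35.0 at 297). POM121C (33.3), of the nuclear pore, HBS1L (31.5), a factor of ribosome rescue, KLHL9 (31.5), an adaptor of ubiquitin ligases, and TAF13 (31.0), a subunit of TFIID, came next. RWDD2B, BCO2 and RPL37A each had a fold of 30.8. None of the 15 genes tallest by pileup was among the 15 highest by fold. BCO2, a carotenoid-cleaving enzyme, had 71 fragments of each mark over a background of 1.34, while RPL37A had 232 of H3K27ac and 47 of H3K4me1.

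The tallest H3K4me1 summits under gene-end H3K27ac peaks belonged to other genes and mostly lay away from starts. SLC48A1, a heme transporter, had 421 fragments at chr12:47754867-47755152, 1041 bp inside the gene, with 97 of H3K27ac. LOC107985729 had 360 at a start, at a peak that also lies at an end of VWA1, RAB20 354 and B3GALT6 350 near its far end. PWWP2B (349), TOM1L2 (346), VASN (345), RECQL4 (344), SLCO4A1 (320) and CSRNP1 (313) completed the 10. Their H3K27ac pileups ran from 58 at RECQL4 to 243 at LOC107985729. The summits of both marks lay close together at these genes, with offsets from -46 bp at TOM1L2 to 46 bp at B3GALT6 and the same base at PWWP2B and RECQL4.

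The extremes of balance were taken among the 15165 peaks with at least 20 fragments in the sum of both marks. LMCD1, a LIM domain protein, had 123 fragments of H3K4me1 over 6 of H3K27ac at chr3:8501620-8501777, a ratio of 20.5. FGL2 (112 over 7, ratio 16.0), RHPN1 (247 over 16), CD177 (76 over 5) and SERTAD4 (105 over 7, ratio 15) followed. With 5 to 16 fragments of H3K27ac these ratios are imprecise: the exact Poisson interval of the 6 fragments at LMCD1 is 2.20 to 13.1. At the other end, CEP76, a centriolar protein, had a ratio of 0.0440 at 159 fragments of H3K27ac, EWSR1, an RNA-binding protein, 14 over 305 (0.0459), FCSK, a fucose kinase, 6 over 128, RPS14 8 over 167 (0.0479) and FLCN 21 over 405 (0.0519). At RPS14 and EWSR1 the H3K4me1 summit stood at -313 and -242 bp from the H3K27ac summit, in the upstream flank, while at FLCN both summits shared a base.

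The widest peaks were those of TSC22D2 (2896 bp), POLR2H (2729 bp), CDK13 (2683 bp), MBOAT7 (2502 bp) and ARF1 (2451 bp). Each overlapped between 2 and 5 H3K4me1 peaks, 5 of them at POLR2H, a subunit shared by the RNA polymerases. At TSC22D2 and CDK13 the tallest H3K4me1 peak stood 2101 and 2074 bp from the H3K27ac summit, on the gene-body side, within the same acetylated stretch.

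The 7 luminal prostate genes used to check the label of the cells each carried a peak of both marks, where 63.2% of all protein-coding genes did. They are a small chosen set, and 5 of them also stand in the androgen-response or lineage factor lists below, where other genes had none. TMPRSS2, the androgen-regulated serine protease gene, had 193 fragments of H3K27ac and 59 of H3K4me1, and the lineage factor gene HOXB13 154 and 103. The HOXB13 peak, at chr17:48722409-48722709, lay outside the gene, which spans 48724763 to 48728750. The promoter table does not give the strand of HOXB13, so whether that peak lies at its start was not tested. KLK2, a kallikrein, had 117 and 214, KLK3 106 and 91, and the pioneer factor gene FOXA1 74 and 23. The keratin genes KRT8 and KRT18 shared 1 peak of 178 and 43. KLK2 had the highest ratio of H3K4me1 to H3K27ac of the 7, at 1.83.

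Blood, stromal and liver markers had such peaks at a smaller share of genes than the 63.2% of all protein-coding genes, whereas the intervals of the basal and neuroendocrine lists hold that value. The 2 of 20 blood genes were SPI1, a myeloid and B-cell factor (31 fragments of H3K27ac), and CD3E of the T-cell receptor (14), and PTPRC, the pan-leukocyte marker, had none (10% of the list, exact 95% interval 1.23 to 31.7, but 35% within 5 kb and 0 of the 11 genes of known strand at starts). Of 20 stromal genes 4 were marked, led by ACTA2 (35), COL1A1 (24) and CDH5 (13), and DCN, LUM and PECAM1 were not (20%, 5.73 to 43.7, but 10% within 1 kb). Of 20 liver genes 6 were marked, led by the tyrosine aminotransferase gene TAT (91), the transferrin gene TF (73) and APOA2 (41), without ALB (30%, 11.9 to 54.3, and 20% within 1 kb). Of 18 basal genes 9 were marked, led by NGFR (104), LAMB3 (45) and ITGA6 (36), but not KRT5 or TP63 (50%, 26.0 to 74.0, but 22.2% within 1 kb). Of 18 neuroendocrine genes 7 were marked, led by ENO2 (127), PEG10 (74) and SYP (48), but not CHGA or INSM1 (38.9%, 17.3 to 64.3). The median H3K27ac pileups of the marked genes in these 5 lists ran from 15 to 36.5, against 73 over all marked genes. The fragments given can come from a peak at either end of a gene, so they need not describe its start. Among genes of known strand, starts were marked at 1 of 7 stromal, 4 of 13 liver, 4 of 9 basal and 5 of 10 neuroendocrine genes.

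Androgen-response genes were marked at 27 of 31 (87.1%, exact 95% interval 70.2 to 96.4), with a higher ratio of H3K4me1 to H3K27ac than all marked genes. STEAP2 led, followed by CENPN (208 fragments of H3K27ac and 27 of H3K4me1), of the centromere, and HERC3 (203 and 52), while TRPM8, MAF, ADAM7 and LIFR had no such peak. The list's median ratio was 0.978, its median H3K4me1 pileup 59 and its median H3K27ac pileup 55, against 0.556, 37 and 73 over all marked genes. The ratio falls as H3K27ac rises, and the list was not compared at matched H3K27ac height. The lineage transcription factor list had 16 of 24 genes (66.7%, 44.7 to 84.4), near the share of all genes, but 43.8% against 61.8% of all genes when only starts of known strand were counted. XBP1, a factor of the unfolded protein response, led with 378 and 71, then HOXB13 and the epithelial factor gene GRHL2 (149 and 39), with no such peak at GATA3, ERG, ETV1 or SOX4.

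Genes of basic cell functions were marked nearly without exception, and their H3K4me1 was low relative to H3K27ac. All 20 aminoacyl-tRNA synthetase genes, which charge transfer RNAs, had such a peak, with AARS1 (216 fragments) and VARS1 (176) among the tallest and a median ratio of 0.332. Splicing factors had 23 of 24, led by RBM39 (377), SRSF5 (333) and SRSF4 (249), with a median ratio of 0.229. Ribosomal protein genes had 76 of 80 with a median ratio of 0.268, and complex I subunit genes, of the respiratory chain, 35 of 36 with 0.319. Heat shock and chaperone genes had 18 of 20 (HSPA9 363, HSPA4 250, HSPA8 241; median ratio 0.275), and core proteasome genes 13 of 14 (PSMB2 193; 0.327). In these 6 groups the median H3K4me1 pileup lay between 30 and 39, close to the 37 of all marked genes, while median H3K27ac ran from 90 to 160 against 73.

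Chromatin regulators, among them the enzymes that write these marks, had 30 of 32 genes, led by the demethylase gene KDM6B (315), BRD2 (279), a reader of acetylated histones, and the deacetylase gene HDAC2 (264), with a median ratio of 0.314. Cell cycle genes had 27 of 28, led by CDK2 (165), CDK4 (147) and CCNB1 (139), with CDK6 unmarked and a median ratio of 0.659. Glycolysis genes had 16 of 17, led by ENO1 (172), GPI (131) and TPI1 (108), with a ratio of 0.689. Immediate early genes, which respond fast to stimuli, had 25 of 28, led by JUN (277), JUND (252) and DUSP1 (227), with a ratio of 0.506 and no such peak at EGR3, ATF3 or CCN2. These 4 lists matched the basic cell functions in share, and the last 3 came closer to all genes in balance.

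Large families lay on either side of the background of 63.2%. RAB GTPase genes had 56 of 63 (88.9%), ZNF genes 331 of 509 (65%) and solute carrier genes 245 of 386 (63.5%), the last pair close to all genes. Histone genes, variant genes outside the clusters included, had 47 of 92 (51.1%). Olfactory receptor genes had 9 of 392 (2.30%) and keratin-associated protein genes 7 of 94 (7.45%) and their few peaks were low, with medians of 7 and 6 fragments. ZNF genes combined a median H3K27ac pileup of 56 with an H3K4me1 pileup of 23, for a ratio of 0.409, while solute carriers had 57 and 42 for 0.727.

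**Figure D5:**
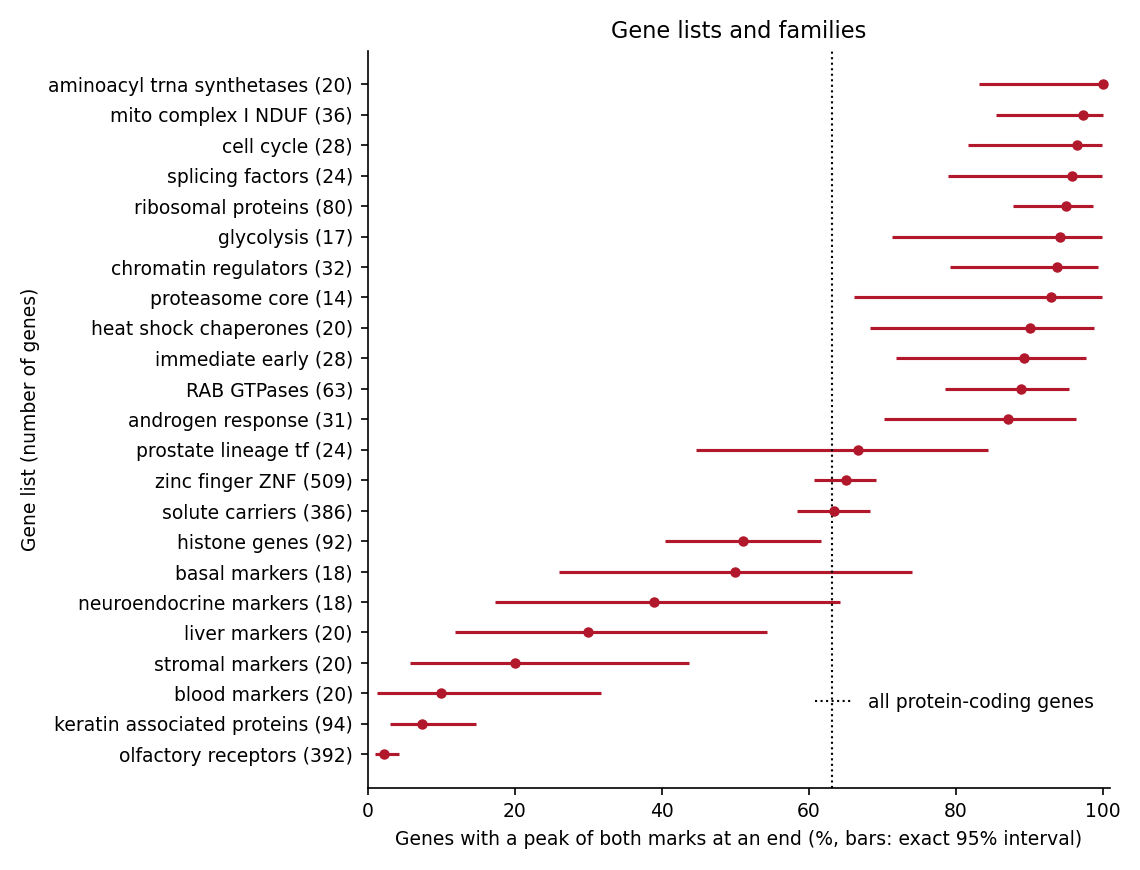
Percentage of the genes of each list or family (vertical axis, number of genes in parentheses) with a peak of both marks at an end (horizontal axis), with exact 95% intervals and the 63.2% of all protein-coding genes as a dotted line. Lists of basic cell functions, chromatin, stimulus response and androgen response lie between 87.1% and 100%, markers of other cell types between 10% and 50%, with wide intervals, and olfactory receptors at 2.30%.

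The sequence at the marked starts was searched in the promoter table, which holds 22012 windows of 300 bases for 15712 genes, several for genes with several starts. A gene-end peak of both marks overlapped 10325 of the windows, and neither mark overlapped 8952. The marked windows were GC-rich: their median GC content was 66.7% against 62.3% in all windows and 53.7% in those with neither mark. Their median number of CpG was 28 against 21 and 6. All windows include the marked ones. The 1651 windows that overlapped an H3K27ac peak but no gene-end peak of both marks were GC-rich too, with medians of 65.3% and 24 CpG. Base composition moved with the marks in this way in all the motif counts that follow, and its part in them was not tested.

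Motif letters were searched on both strands, and 306 windows (1.39%) held letters shared by different motifs. The GC box GGGCGG, bound by SP and KLF factors, was in 76.2% of the marked windows, 56.3% of all windows and 32.7% of those with neither mark. The ETS motif CCGGAAG was in 21.3%, 12.8% and 3.82%. The NRF1 motif GCGCATGC was in 6.10%, 3.71% and 1.21%, the YY1 motif AAGATGGC in 5.88%, 3.54% and 1.05%, and the cyclic AMP response element TGACGTCA in 3.40%, 2.25% and 1.01%. Each of these was more frequent in marked windows. In the 1651 windows with an H3K27ac peak but no gene-end peak of both marks, the 5 motifs were in 64.7%, 14.4%, 3.94%, 4.12% and 2.73%. These shares lay between those of marked and of all windows, so the excess was not particular to the marked windows.

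The CACGTG E-box was in 10.7% of marked and 8.32% of all windows, and the ZNF143 motif CTACAATTC in 0.610% and 0.363%. The CCAAT box hardly changed, at 35.9% and 34.7%. Less frequent in marked windows were the TATA motif TATAAA (4.05% against 9.49%), the AP-1 motif TGANTCA (3.54% against 6.16%), the forkhead motif TGTTTAC (2.20% against 2.86%) and the androgen response element half-site AGAACA (7.41% against 11.8%). The printed windows of KLK3 and BCO2 are of this less common, CpG-poor kind, and those of STEAP2, SLC71A1 and RPS14 of the common one.

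Among marked windows, ETS and YY1 letters went with little H3K4me1. In the 25% of windows with the lowest ratio of H3K4me1 to H3K27ac the ETS motif was in 28.4%, the YY1 motif in 8.02% and the cyclic AMP response element in 5.00%, and in the 25% with the highest ratio in 11.9%, 2.59% and 1.62%. Low ratio and high H3K27ac go together, so the split was repeated within 65 to 99 fragments of H3K27ac, a step chosen after the first split was seen. There the ETS motif was in 31.0% of the lowest 25% (exact 95% interval 27.5 to 34.6, 662 windows) and 17.3% of the highest (14.5 to 20.4, 659 windows). The YY1 motif was in 8.16% and 4.10%, and the cyclic AMP response element in 5.14% and 1.67%. Base composition also differed between these groups: the median GC content was 64.7% and 68.0% and the observed-to-expected ratio of CpG 0.913 and 0.824, with 28 and 27 CpG. The GC box went the other way, 71.6% against 81.3%. The printed RPS14 window belongs to the lowest 25% of the first split. Windows of the same gene share sequence, so the intervals are too narrow.

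At the threshold of the choice, CCDC78 was kept with an overlap of 1 bp, with pileups of 37 for H3K27ac and 49 for H3K4me1, CADM4 with 2 bp (10 and 9) and UBA7 with 4 bp (6 and 6). Just outside, H3K27ac peaks at LOC124904095 missed an H3K4me1 peak by 1 bp (10 and 4), and those at FBXL18 (8 and 5) and LOC124905135 (22 and 17) by 2 bp. Such cases were rare: 15 of the 15613 peaks overlapped by 10 bp or less, and 44 of the 3173 peaks without overlap had an H3K4me1 peak within 100 bp. In position, 55.0% of the peaks spanned the gene end itself and 4.04% had their edge at least 2000 bp from it.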

How the data were processed

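Peaks of 1 H3K4me1 and 1 H3K27ac CUT&Tag library were analysed. BWA, MACS2 and hg38 were used, per the submitters' processing notes, without versions. Settings, treatment of duplicates and any background library are not given in the sources used here. The deposited fold enrichment is a ratio to local background, by the authors, the deposited significance is −log10 of p-values and q-values at the summit, and the deposited score is 10 times −log10 q rounded down for nearly all peaks. The deposited summit position is an offset in bp within the peak.

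The analysis kept 64784 of 64850 H3K27ac peaks and 139511 of 139692 H3K4me1 peaks, those on chromosomes 1 to 22 and X, and there were no overlapping peaks to merge. The libraries' depth is unknown. A summit pileup of k over background λ gives a fold of (k + 1)/(λ + 1) and a Poisson p of more than k, and solving both gave a whole k for 100% of peaks (tolerance 0.001 on the −log10 p scale, or 0.0001 relative). The method, checked on simulated peaks, assumes this model. Gene spans and promoter windows came from RefSeq tables for GRCh38.p14, the former without strand, which the latter gave for 15812 of 19974 protein-coding genes. Genes were matched by symbol, and 1 androgen-response symbol was not matched. Intervals are exact at 95% (Clopper-Pearson for shares, Poisson for pileups) and cover counting error only, and the limit beside a share of 0 is 3 counts of the total. No test was made, having no replicates. The peaks, lists and motifs were chosen with earlier results of these data known.

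A peak was assigned to the gene with an end nearest its H3K27ac summit. Named genes are the 15 tallest by H3K27ac, 10 by fold, 10 by H3K4me1, 5 widest, 5 at each end of the ratio, the 3 tallest per list and the luminal markers. A few genes these rules would name are not reported here. Printed promoters were chosen after their values were seen. Python 3.11.15, pandas 2.3.3, numpy 2.4.6, scipy 1.17.1 and matplotlib 3.10.9 were used. Alternatives were the window, overlap, peak threshold, depth, gene starts only, chromosome ends and the choice of H3K4me1 summit.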

Additional observations from a re-analysis of the deposited data

How the results depend on the processing

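No paired analysis was possible because each antibody had 1 library and no replicate. The 15613 gene-end peaks with both marks became 8346 when at least 50% of each peak had to overlap, and between 11360 and 18237 under the other alternatives. Their share of the gene-end H3K27ac peaks, 83.1%, became 44.4% with that overlap, 82.1% with 50% of the shorter peak, 88.5% at −log10 q of at least 5, 87.9% at 10 fragments or more and 87.9% at gene starts only. It was 86.1% within 1 kb, 80.3% within 5 kb and 84.3% without the outer 5 Mb of each chromosome. The median distance between summits, 36 bp, became 34 bp at the stricter q, 34 bp at 10 fragments or more, 37 bp within 1 kb, 37 bp at starts only and 39 bp with the tallest H3K4me1 summit. The share of start peaks with H3K4me1 on the upstream side, 52.9%, became 54.2%, 54.3% and 54.2% at the stricter q, within 1 kb and with the tallest summit. The median ratio, 0.710, became 0.672 at 10 fragments or more and 0.697 with the nearest H3K4me1 peak. The share of all protein-coding genes marked, 63.2%, became 58.4% within 1 kb, 67.8% within 5 kb and 61.8% at starts only. Of the 15 genes with the tallest H3K27ac, 0 were kept by fold enrichment and 11 by score. Of the 15 gene lists, 10 lay above the share of all genes and 5 below it, also within 1 kb and 5 kb, and 9 and 6 at starts only, where the lineage factors had 43.8% of genes of known strand. Basal markers had 22.2% within 1 kb against 50%, and blood markers 35% within 5 kb against 10%. The causes of these changes were not tested. Without replicates no value has an error beyond counting.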
